A study of Rattus norvegicus with 43 samples.

Results

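The genes described here encode the clotting factors, anticoagulants, fibrinolytic proteins and complement proteins that hepatocytes secrete into plasma. They were chosen by name from these pathways, 41 genes in all, and 34 of them had a probe set of their own on the array, 18 of coagulation and fibrinolysis and 16 of complement. All 34 passed the filter on low signal and were tested among 10649 genes. F7, F11, F13b and Proz had no probe set listed, C2, C4a and Cfb were listed only on probe sets shared by several genes, and Kng1 was read through Kng2l1, a rat kininogen gene whose near-identical copies the probes may not tell apart. The study set rat liver beside primary hepatocytes in culture (RPH) to ask how far the cultured cells keep the liver's expression.

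Affymetrix RG230-2 arrays were hybridised with RNA from 3 untreated male Sprague Dawley rats, whose age is not given in the labels. Liver was a lobe tied off before perfusion. RPH at 0 h were the freshly isolated cells of the same animals, before plating. RPH at 4, 24 and 48 h were plated on collagen in William's E medium with glutamate, gentamicin, insulin, transferrin and dexamethasone, with fetal bovine serum until 4 h and without serum after that. No test compound was given to any of these groups, the animals were killed under pentobarbital, and the hormone and antibiotic supplements were shared by all plated cells but not by liver. Each group held 3 rats, with 2 or 3 technical arrays for each rat that were averaged before any test, so n = 3 throughout. Values are MAS5 signal in arbitrary units, a fold change is on the log2 scale, and a gene was called when its adjusted p was under 0.05 (limma, Benjamini-Hochberg over the 10649 genes). Where a gene's signal is given by sample, the values follow rats 1, 2 and 3.

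Coagulation runs as a cascade of serine protease zymogens that ends when thrombin turns fibrinogen into fibrin, while serpins and the protein C system hold it in check and plasmin dissolves the clot. Complement is another plasma cascade, opened by antibody through C1 or by sugars through mannose-binding lectins. It converges on C3 and ends in the membrane attack complex built from C5 to C9. In adult animals the hepatocyte is the main source of most of these proteins, and several, fibrinogen and C3 among them, are acute-phase proteins that interleukin-6 and glucocorticoids induce in hepatocytes. Factors of the HNF1 and C/EBP families bind many promoters of this class.

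The promoters of the 3 fibrinogen chains and of the C4b-binding protein chains are shown because the results below turn on how unevenly these neighbouring genes changed in culture. Sequences are from RefSeq (rat, GRCr8), 250 bases ending at the base before a listed start. They are read 5′ to 3′ on the gene's strand, so that a match on the other strand shows as the reverse complement. For Fga, Fgb and C4bpb that start is the start of the annotated gene. For Fgg it is 170653083, inside a gene annotated from 170652929. For C4bpa it is 44663471, inside a gene annotated from 44663552 on the minus strand. Capitals mark matches to 4 motifs searched on both strands, none of which overlapped another. The HNF1-type motif was written as GTTAAT. The core of the response element for interleukin-6 was written as CTGGGAA. The motif of C/EBP type was written as TTGCNNAA. The last was the TATA box, written as TATAAA.
Fga, chr2:170671919-170672168, plus strand: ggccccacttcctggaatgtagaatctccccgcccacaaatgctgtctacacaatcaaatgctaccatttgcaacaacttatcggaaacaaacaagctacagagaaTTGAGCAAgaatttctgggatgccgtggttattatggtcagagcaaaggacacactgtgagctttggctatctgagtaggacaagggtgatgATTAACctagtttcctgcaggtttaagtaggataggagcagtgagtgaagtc
Fgb, chr2:170700876-170701125, minus strand: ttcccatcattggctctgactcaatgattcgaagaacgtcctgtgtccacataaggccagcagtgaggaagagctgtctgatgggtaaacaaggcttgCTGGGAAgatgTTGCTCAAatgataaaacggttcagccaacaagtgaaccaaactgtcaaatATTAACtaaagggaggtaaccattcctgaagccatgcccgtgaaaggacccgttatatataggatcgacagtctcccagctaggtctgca
Fgg, chr2:170652833-170653082, plus strand: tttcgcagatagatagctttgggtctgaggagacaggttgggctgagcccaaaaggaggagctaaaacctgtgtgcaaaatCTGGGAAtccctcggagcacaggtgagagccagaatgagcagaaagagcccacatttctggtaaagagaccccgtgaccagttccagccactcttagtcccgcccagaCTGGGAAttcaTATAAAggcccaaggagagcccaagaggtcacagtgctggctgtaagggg
C4bpa, chr13:44663472-44663721, minus strand: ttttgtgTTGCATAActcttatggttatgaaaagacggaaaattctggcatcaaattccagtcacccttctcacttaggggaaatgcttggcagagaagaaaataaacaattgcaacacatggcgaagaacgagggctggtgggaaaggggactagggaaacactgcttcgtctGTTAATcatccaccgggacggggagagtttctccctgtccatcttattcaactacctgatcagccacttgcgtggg
C4bpb, chr13:44683782-44684031, minus strand: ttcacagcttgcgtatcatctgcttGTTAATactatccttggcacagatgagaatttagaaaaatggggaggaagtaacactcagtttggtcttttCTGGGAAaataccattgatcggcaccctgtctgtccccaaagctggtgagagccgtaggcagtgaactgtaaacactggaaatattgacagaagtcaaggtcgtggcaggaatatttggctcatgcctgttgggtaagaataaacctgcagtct

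Of the 34 measured members, 27 had a promoter in the RefSeq table, which held 27457 promoters. The HNF1-type motif was found in 9 of the 27 (33.3%), F2, Proc, Plg, Fga, Fgb, C5, C8a, C4bpa and C4bpb, and in 6.49% of all promoters. The interleukin-6 core was in 9 of 27 (33.3%), Fgb, Fgg, C4bpb, C3, Plg, F9, Kng2l1, Serpinc1 and C1r, against 9.31% of all promoters. The C/EBP type motif was in 12 of 27 (44.4%), against 9.2% of all promoters. The TATA box was seen in 1 of 27, Fgg, and in 13.1% of all promoters. A match is a run of letters in this window and was not tested as a binding site. By the letters searched, the fibrinogen promoters did not hold the same set. Fga had an HNF1-type and a C/EBP-type match, Fgb had those and an interleukin-6 core, and Fgg had 2 interleukin-6 cores and the TATA box. Fga also held ctgggat, which differs from the interleukin-6 core as written in its last letter only and was not counted. C4bpa and C4bpb both held an HNF1-type match, and of these chains C4bpb alone held the interleukin-6 core. The windows do not have the same place relative to the gene. The TATA box and the nearer interleukin-6 core of Fgg, and the HNF1-type match of C4bpa, lie inside the annotated gene.

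The 43 arrays gave median signals of 79.4 to 145, and RPH arrays (79.4 to 116) were mostly dimmer in the middle than liver arrays (108 to 145). The 3′ to 5′ actin ratio, a sign of RNA integrity, was 2.89 to 7.68 on single liver arrays, 2.97 to 5.71 at 0 h, 2.18 to 3.47 at 4 h, 1.99 to 2.58 at 24 h and 1.88 to 2.60 at 48 h. In the averaged samples that were tested it was 3.21 to 6.96 in liver and 3.16 to 4.3 at 0 h. It was 2.85 to 3.12 at 4 h, 2.23 to 2.5 at 24 h and 1.95 to 2.46 at 48 h. Thus it moved with the groups, and the averaged samples at 4 h overlapped neither those at 0 h nor those at 24 h. Of 7 hepatocyte markers, 5 were called lower at 48 h vs. liver (median -0.60). Alb averaged 29636 in RPH at 48 h and 36532 in liver and was not called (log2 fold change -0.30, adjusted p = 0.233), while Cyp2e1 averaged 163 in RPH at 48 h and 35437 in liver. Markers of most other liver cells were lower in culture, but those of the bile duct were not lower as a set. The summed signal of 5 bile duct markers was 2250 to 3213 at 48 h and 1073 to 1121 in liver. Of the 3 of them that were tested, 1 was higher and 1 lower. The summed signal of 11 Kupffer cell markers was 2274 to 4892 at 48 h and 23948 to 30740 in liver, and 10 of them were called lower. That of 9 endothelial markers was 578 to 1153 at 48 h and 13462 to 16623 in liver, with 9 lower. That of 11 stellate cell markers was 4720 to 6624 at 48 h and 7083 to 14145 in liver, with 6 lower and 1 higher. The higher one was Tagln, which averaged 3633 at 48 h and 92.6 in liver and made up most of the 48 h sum. The summed signal of 4 erythroid markers was 193 to 304 at 48 h and 7722 to 58679 in liver, with 4 lower. The liver of rat 1 stood apart from the others in it (Hbb 5219 in rat 1, 41369 and 38946 in rats 2 and 3). Without that liver the counts of members called vs. liver were 0 at 0 h, 5 at 4 h, 27 at 24 h and 30 at 48 h, equal to the counts with it. The genes called were not all the same. At 4 h Serpinf2 lost its call and F5 was called higher (0.57). C6 was gained at 24 h, where Proc was lost, and at 48 h, where Cfi was lost. All members are read from bulk RNA, so fewer cells of a type and less RNA per cell cannot be told apart, and the part of these shifts in the results below was not tested except where a value is given.

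In the freshly isolated cells no member was called and the median was near that of liver. In RPH at 0 h vs. liver, 0 of the 34 members were called (limma), and 1 had an unadjusted p under 0.05. Of all genes, 0.573% were called. The members' median log2 fold change was 0.04, beside -0.08 for all genes, and they ranged from -0.81 to 0.60. The lowest of them, Masp1, which activates the lectin pathway, had log2 differences of -0.25, -1.45 and -0.73 in rats 1, 2 and 3 and was below liver in every rat, but it was not called (adjusted p = 0.168). In the same samples the median of the Kupffer cell markers differed by -0.45, -1.48 and -0.68 and that of the stellate cell markers by -0.24, -1.75 and -0.96, the same order over the rats as Masp1. Their part in the Masp1 values was not tested. The dimmer probe sets of Masp1 went other ways, at 1.24 and -0.33 at 0 h vs. liver. The highest, C6, a terminal complement component, stood at 1.42 in rat 2 and at 0.18 and 0.21 in rats 1 and 3.

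After 4 h in culture few members were called, and which ones depended on the scaling. At 4 h vs. liver 5 of 34 were called lower (14.7%) and 0 higher, while 29.8% of all genes were called lower. This share was below the background, and the members' median of -0.18 was close to that of all genes, -0.25. The 5 genes were Masp1 (-1.13), Mbl2 (-0.59), Mbl1 (-0.46), C8b (-0.44) and Serpinf2 (-0.54). Under median centring Mbl2 was at -0.13, Mbl1 at 0.00, C8b at 0.02 and Serpinf2 at -0.08, none called, while F5 and Fgb were called higher. The call of Masp1 rested on its brightest probe set, since the others gave 1.05 and 0.26 at 4 h and the mean of all 3 gave 0.06 (adjusted p = 0.898). Against the 0 h cells, 5 of 34 were also lower at 4 h, beside 22.7% of all genes. These were Mbl2 (-0.72), C5 (-0.55), Mbl1 (-0.54), C8a (-0.40) and C8b (-0.38), and with the rat as a block C1s (-0.36, adjusted p = 0.0407) and Pros1 (-0.50, adjusted p = 0.0106) joined them. Both counts were fragile: they fell to 2 or 3 of 34 vs. liver and to 1 or 2 vs. 0 h when any of the 3 rats was left out of every group, and single samples mattered too. Without the liver of rat 2, or the 4 h sample of rat 1 or of rat 2, 3 members were called vs. liver. Vs. 0 h, 1 was called without the 0 h sample of rat 2 or of rat 3, and 2 without the 4 h sample of any rat.

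By 24 h most of the system was lower, and by 48 h nearly all of it. At 24 h vs. liver 27 of 34 members were called lower (79.4%) and 0 higher, while 23.9% of all genes were called lower. At 48 h vs. liver 30 of 34 were lower (88.2%) and 0 higher, while 22.6% of all genes were lower and 25.4% higher. The members' median log2 fold change was -0.92 at 24 h and -1.32 at 48 h, beside 0.00 and 0.04 for all genes. Both arms took part, with 16 of 18 coagulation genes (median -1.28) and 14 of 16 complement genes (median -1.40) lower at 48 h. The 4 members not called at 48 h were F5 (-0.26), Pros1 (-0.16), C1r (-0.61) and C6 (-1.19). Of these, C6 and C1r were called with the rat as a block (adjusted p = 0.0218 and 0.0199). Centring every array on its median moved the median of all genes to 0.43 at 48 h and 0.42 at 24 h, with 4318 of 5759 and 4242 of 5700 called genes then higher, in place of 2700 of 5106 and 2524 of 5068. It left 25 of 34 members lower at 48 h and 15 of 34 at 24 h, with members' medians of -0.93 and -0.50. The calls lost by centring were those of C1s, C3, Cfi, Masp2 and Proc at 48 h, and of Fga, Fgb, Fgg, F2, F9, F10, F12, Proc, Serpinc1, C1s, Masp2 and C9 at 24 h.

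**Figure D1:**
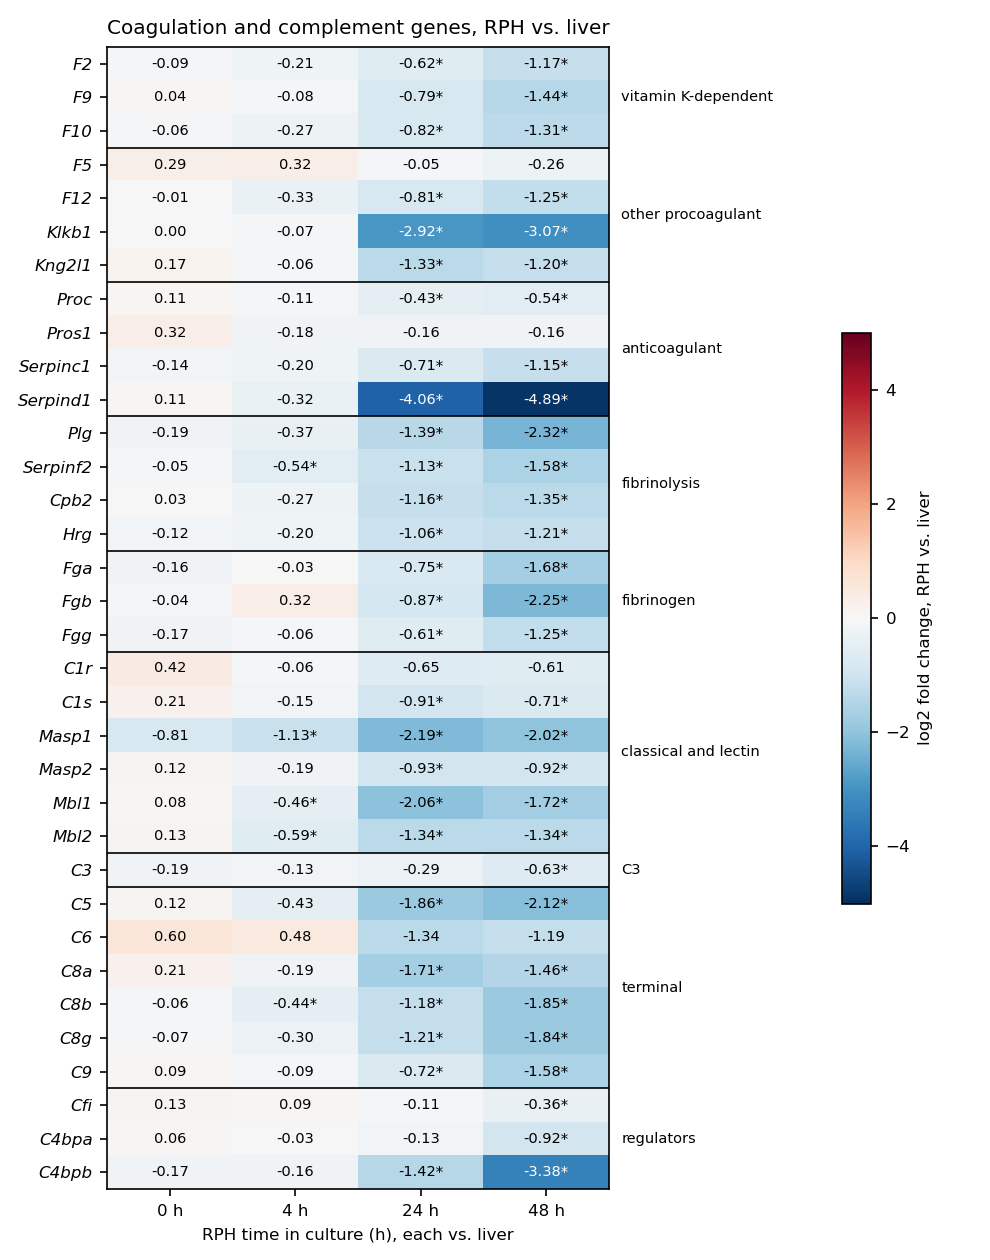
Mean log2 fold change vs. liver (n = 3 rats per group) of each of the 34 measured genes (rows, by functional group) in RPH at 0, 4, 24 and 48 h (columns), printed in each cell with an asterisk where called. Colours near white at 0 and 4 h give way to lower values at 24 and 48 h in nearly every row, with Serpind1, C4bpb and Klkb1 the lowest at 48 h (-4.89, -3.38 and -3.07) and F5 (-0.26) and Pros1 (-0.16) nearest to liver.

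Fibrinogen, the substrate of thrombin, is assembled from 3 chains encoded side by side on chromosome 2 (gaps of 11.8 kb between Fgg and Fga and 14.4 kb between Fga and Fgb). All 3 chains were lower in RPH at 24 and 48 h. By the chosen probe sets Fgb had the lowest value of them, but this order depended on the probe set of Fga. At 24 h none of the 3 was called under median centring (Fga -0.34, Fgb -0.45 and Fgg -0.19) or without rat 2, and Fgg was not called either under quantile normalization (-0.27), with the actin ratio as a covariate or without rat 1. Fgb, the beta chain, had signals of 30823, 37697 and 34351 in liver, 28789, 36947 and 34387 at 0 h, 43475, 38646 and 46007 at 4 h, 18784, 14211 and 24711 at 24 h and 6730, 6997 and 7847 at 48 h. Every rat was above its own liver and 0 h value at 4 h and at the lowest level of the series at 48 h. The 4 h difference was not called (log2 fold change 0.32, adjusted p = 0.18), though with median centring it was (0.78, adjusted p = 0.0152), and at 48 h the gene was 4.76-fold lower vs. liver (log2 fold change -2.25, SE 0.19, adjusted p = 8.28e-07). Fga, the alpha chain, had 38113, 42064 and 39548 in liver, 32613, 38410 and 36471 at 0 h, 38508, 35557 and 43234 at 4 h, 22835, 19291 and 29987 at 24 h and 11839, 11248 and 14455 at 48 h, so that liver, 0 h and 4 h overlapped and 48 h lay below all of them (log2 fold change -1.68, SE 0.17, adjusted p = 4.18e-06 at 48 h vs. liver). A dimmer probe set of Fga gave a steeper change, -3.31 at 48 h, where the brighter probe set gave -1.68. Fgg, the gamma chain, had 45184, 48596 and 45055 in liver, 37456, 45232 and 40847 at 0 h, 43935, 41145 and 48625 at 4 h, 30296, 23899 and 38326 at 24 h and 20886, 17835 and 19770 at 48 h. Of the chains it had the smallest change (log2 fold change -1.25, SE 0.17, adjusted p = 4.46e-05 at 48 h vs. liver).

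Within each rat the beta chain lost more signal than the gamma chain. The log2 fold change of Fgb at 48 h vs. liver minus that of Fgg was -1.08, -0.98 and -0.94 in rats 1, 2 and 3. That of Fga minus Fgg was -0.57, -0.46 and -0.26. These pairs of genes were chosen after their values were seen. An exact two-sided permutation test of 3 samples against 3, which did not pair the samples of a rat, cannot give a p below 0.1. It gave 0.1 in all 18 gene-pair comparisons made (0.1 after Benjamini-Hochberg). The chains' log2 fold changes compare each probe set with itself, so they do not give the ratio of the transcripts.

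**Figure D2:**
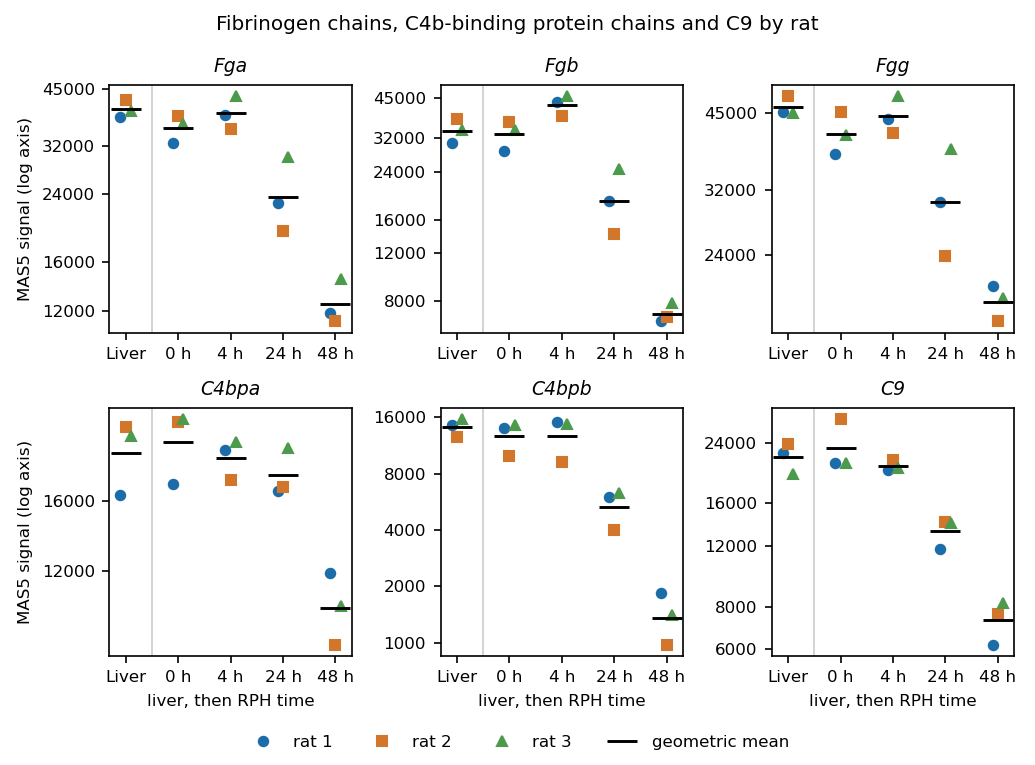
MAS5 signal (log axis) of the 3 fibrinogen chains and the C4b-binding protein chains and of C9 in each of the 3 rats (points) and their geometric mean (bars) in liver and in RPH at 0, 4, 24 and 48 h. The fibrinogen chains separate after 4 h, with Fgb averaging 7176 at 48 h and 34175 in liver, and C4bpb is at -3.38 and C4bpa at -0.92 on the log2 scale at 48 h vs. liver.

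The vitamin K-dependent zymogens, which are carboxylated in the liver so that they bind membranes, were all lower at 24 and 48 h. At 24 h none was called under median centring (F2 -0.21, F9 -0.37 and F10 -0.40), F9 was not called without rat 2, and F2 was not called without rat 1 or rat 2, under quantile normalization (-0.32) or with the actin ratio as a covariate. F9, the factor missing in haemophilia B, had 16962, 18385 and 18644 in liver, 15911, 20898 and 19008 at 0 h, 15970, 15958 and 19301 at 4 h, 9947, 8622 and 13065 at 24 h and 5866, 6899 and 7126 at 48 h. Its 3 samples at 48 h lay below all 3 at 24 h, and those below all liver samples (log2 fold change -1.44, SE 0.17, adjusted p = 1.71e-05 at 48 h). F10, the protease that cleaves prothrombin, had 11751, 12505 and 12027 in liver, 10398, 11812 and 12822 at 0 h, 9270, 9371 and 11534 at 4 h, 6497, 6281 and 7869 at 24 h and 4750, 5003 and 4870 at 48 h. It showed the same order of times, 2.48-fold lower at 48 h (log2 fold change -1.31, SE 0.14, adjusted p = 7.03e-06). F2, prothrombin itself, was less changed at 24 h (-0.62) than at 48 h (-1.17, adjusted p = 0.000101).

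Of the other procoagulants, plasma prekallikrein stood apart. Klkb1, which encodes this protease of the contact system, had 12601, 9929 and 12036 in liver, 11855, 10545 and 12151 at 0 h, 10844, 10527 and 11388 at 4 h, 1645, 1036 and 2031 at 24 h and 1334, 824 and 2321 at 48 h. Its first 3 groups overlapped, and all 6 samples at 24 and 48 h were far below the rest, 8.39-fold lower at 48 h (log2 fold change -3.07, SE 0.31, adjusted p = 4.26e-06). The spread between rats was also widest there, with rat 2 lowest at both times. F12, the protease that prekallikrein activates, had 16589, 15657 and 13519 in liver, 15175, 16384 and 13712 at 0 h, 12495, 12430 and 11495 at 4 h, 8985, 7345 and 9900 at 24 h and 7183, 5547 and 6530 at 48 h. Its decrease at 48 h was smaller (log2 fold change -1.25, SE 0.15, adjusted p = 2.26e-05). Kininogen, the cofactor of both, read through Kng2l1, was at -1.33 at 24 h and -1.20 at 48 h, with a dimmer probe set at 1.91 at 4 h, where the chosen one was at -0.06. F5, the cofactor of factor Xa, was not called at any time and stayed within -0.26 to 0.32 of liver, whose samples gave 6141, 3655 and 3674. At 4 h it was called higher under median centring (0.78, adjusted p = 0.0384), with the actin ratio as a covariate (0.71, adjusted p = 0.011) and without the liver of rat 1 (0.57, adjusted p = 0.0355).

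Among the anticoagulants, heparin cofactor II had the largest decrease of all 34 members, while protein S was not called. Serpind1, which encodes heparin cofactor II, a thrombin inhibitor, had 17333, 16411 and 17226 in liver, 16928, 19619 and 18530 at 0 h, 14277, 12282 and 14411 at 4 h, 995, 813 and 1316 at 24 h and 732, 443 and 583 at 48 h. The 24 h samples were already more than an order of magnitude below liver, and at 48 h the signal was 29.6-fold lower (log2 fold change -4.89, SE 0.2, adjusted p = 1.67e-09). Antithrombin, its relative and the main inhibitor of thrombin and factor Xa, was much less changed. Serpinc1, its gene, had 34424, 34332 and 33800 in liver, 28960, 33644 and 30718 at 0 h, 30350, 26864 and 32099 at 4 h, 20556, 17622 and 25311 at 24 h and 17051, 14038 and 15360 at 48 h and was 2.21-fold lower at 48 h (log2 fold change -1.15, SE 0.15, adjusted p = 3.98e-05). The log2 fold change of Serpind1 minus that of Serpinc1 was -3.55, -3.92 and -3.75 in rats 1, 2 and 3 (unpaired exact permutation p = 0.1, the smallest possible). This pair too was chosen after its values were seen. Protein C (Proc), which inactivates factors Va and VIIIa, was lower at 48 h (-0.54, adjusted p = 0.00679), but it was not called under median centring (-0.15), quantile normalization (-0.17), with the actin ratio as a covariate (-0.38) or without rat 1 or rat 2. Its cofactor protein S (Pros1) was at -0.16 (adjusted p = 0.49).

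All 4 fibrinolysis genes were lower at 24 and at 48 h, though Plg was not called at 24 h with the actin ratio as a covariate or without rat 1. Plg, which encodes plasminogen, the precursor of the clot-dissolving protease, had 34638, 33849 and 31367 in liver, 29444, 28266 and 29780 at 0 h, 27671, 22158 and 28001 at 4 h, 14038, 7367 and 19590 at 24 h and 8967, 3732 and 8842 at 48 h. Rats differed widely, with rat 2 lowest at 24 and 48 h, and still every cultured sample at those times was below every liver sample (4.99-fold at 48 h, log2 fold change -2.32, SE 0.35, adjusted p = 0.000118). Serpinf2, the plasmin inhibitor, had 15123, 11706 and 9961 in liver, 12654, 11427 and 11047 at 0 h, 7731, 8241 and 9065 at 4 h, 5066, 4624 and 7142 at 24 h and 3812, 3635 and 4750 at 48 h. It was called at 4 h vs. liver, but not under median centring, quantile normalization, no filter or the compared groups alone. With the actin ratio as a covariate it was not called either (-0.32, adjusted p = 0.262). The 4 h call was also lost without rat 1 or rat 2, and without the liver or the 4 h sample of either. At 48 h Serpinf2 was 2.99-fold lower (log2 fold change -1.58, SE 0.19, adjusted p = 2.25e-05). Cpb2, a carboxypeptidase that protects fibrin from lysis, and Hrg, a glycoprotein that binds plasminogen, were at -1.35 and -1.21 at 48 h, both called.

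Most measured members of the classical and lectin pathways were lower at 24 h. By the chosen probe set none of them was lower at 48 h than at 24 h. Dimmer probe sets of Masp2 (-0.19 and -0.12) and Mbl2 (-0.11) were slightly lower at 48 h vs. 24 h. Outside the members, C1qa averaged 675 at 24 h and 288 at 48 h, and Fcna, a ficolin, 275 and 116. Of 6 genes of the classical and lectin pathways, 5 were called lower at 24 h and 5 at 48 h vs. liver, and their 48 h vs. 24 h log2 fold changes were all between 0.01 and 0.34, none called. Mbl1, a mannose-binding lectin, had 5947, 6423 and 6937 in liver, 5926, 7180 and 7368 at 0 h, 4800, 4160 and 5087 at 4 h, 1554, 1472 and 1613 at 24 h and 2347, 1559 and 2028 at 48 h. The samples at 4 h were already below liver and those at 24 and 48 h were the lowest (log2 fold change -1.72, SE 0.16, adjusted p = 2.47e-06 at 48 h). Mbl2, the other mannose-binding lectin, was at -1.34 at 24 h and -1.34 at 48 h. Masp1, a protease bound to these lectins, had 2196, 3678 and 3004 in liver, 1841, 1345 and 1809 at 0 h, 1310, 1046 and 1703 at 4 h, 722, 515 and 690 at 24 h and 769, 588 and 804 at 48 h. It was 4.06-fold lower at 48 h (log2 fold change -2.02, SE 0.24, adjusted p = 1.64e-05), but the call rested on its brightest probe set: the others were dim and gave 0.21 and -0.41 at 48 h, and the mean of all 3 was not called (-0.74, adjusted p = 0.0842). Masp2, the protease that cleaves C4 and C2, was at -0.92 at 48 h. C1s, a protease of the C1 complex, was lower at 48 h (-0.71), though not called under median centring (-0.32), quantile normalization (-0.34) or with the actin ratio as a covariate (-0.58). Its partner C1r was at -0.61 and not called (adjusted p = 0.199, and 0.0199 with the rat as a block), with rat 2 the highest of the 3 at every time in culture.

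C3, the central component and the most abundant complement protein in plasma, was among the least changed. It had 44228, 44734 and 41788 in liver, 34537, 43317 and 37066 at 0 h, 39778, 35408 and 44870 at 4 h, 33056, 33376 and 40953 at 24 h and 29720, 28953 and 26079 at 48 h. The 48 h samples were below all liver samples, a 1.54-fold difference (log2 fold change -0.63, SE 0.14, adjusted p = 0.00301) that was not called under quantile normalization (-0.09, adjusted p = 0.487), median centring (-0.23, adjusted p = 0.366) or with the actin ratio as a covariate (adjusted p = 0.066).

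C7, another part of the membrane attack complex, was not a member and was listed only on probe sets shared by several genes. The 6 measured genes of the complex had log2 fold changes of -2.12 to -1.19 at 48 h vs. liver, and 5 were called. They differed in when they were lowest. C5, whose cleavage starts the complex and releases an inflammatory peptide, had 7394, 7381 and 6605 in liver, 7348, 8195 and 7653 at 0 h, 5524, 4914 and 5400 at 4 h, 2233, 1537 and 2183 at 24 h and 1827, 1242 and 1939 at 48 h. Its samples at 24 and 48 h overlapped (log2 fold change -2.12, SE 0.19, adjusted p = 1.21e-06 at 48 h vs. liver, and -0.26 for 48 h vs. 24 h, not called), and with the rat as a block it was already called at 4 h vs. liver (-0.43, adjusted p = 0.0467). C8a, a chain of C8, was at -1.71 at 24 h and -1.46 at 48 h. C8b, the next chain of C8, had 21649, 22865 and 21296 in liver, 20818, 21573 and 20709 at 0 h, 16665, 15204 and 16539 at 4 h, 9142, 8789 and 11296 at 24 h and 6499, 6120 and 5682 at 48 h, and each time after 0 h lay below the one before (log2 fold change -1.85, SE 0.13, adjusted p = 1.62e-07 at 48 h). C8a and C8b lie 10.6 kb apart on chromosome 5. Between 24 and 48 h C8b lost 0.92, 0.88 and 0.94 log2 units relative to C8a in rats 1, 2 and 3. In this step C8b itself changed by -0.67, while C8a averaged 3446 at 24 h and 4090 at 48 h. Vs. liver, the log2 fold change of C8b minus that of C8a was 0.53 at 24 h and -0.39 at 48 h. Each of these differences had an unpaired exact permutation p of 0.1, the smallest possible. C8g, the third C8 chain, was at -1.21 at 24 h and -1.84 at 48 h. C9, which polymerises into the pore, had 22489, 23895 and 19480 in liver, 21000, 28243 and 21073 at 0 h, 20064, 21437 and 20368 at 4 h, 11761, 14166 and 14056 at 24 h and 6196, 7631 and 8205 at 48 h. The groups at 4, 24 and 48 h did not overlap one another (-0.72 at 24 h vs. liver, and log2 fold change -1.58, SE 0.16, adjusted p = 4.54e-06 at 48 h). C6, which binds C5b, was dim, with 298, 449 and 435 at 24 h, 449, 423 and 415 at 48 h and 537, 1422 and 1229 in liver. Its samples at 24 and 48 h were below every liver sample, but it was not called vs. liver (adjusted p = 0.0678 at 24 h and 0.0989 at 48 h, SE 0.57). It was called at both times with the rat as a block (adjusted p = 0.0125 at 24 h and 0.0218 at 48 h), in a fit of the compared groups alone (0.0191 and 0.023), without rat 1 in every group (0.0287 and 0.0237) and without the liver of rat 1 (0.0318 and 0.0454), and at 24 h under quantile normalization (0.046).

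The chains of C4b-binding protein, the plasma inhibitor of the classical and lectin C3 convertase, differed more in their fold change than the other neighbouring pairs compared. C4bpb, the beta chain, which in plasma carries protein S, had 14620, 12555 and 15666 in liver, 14021, 9901 and 14520 at 0 h, 15054, 9241 and 14810 at 4 h, 5983, 3994 and 6289 at 24 h and 1846, 977 and 1399 at 48 h. It was 10.4-fold lower at 48 h (log2 fold change -3.38, SE 0.27, adjusted p = 5.86e-07), with the 48 h samples well below those at 24 h. C4bpa, the alpha chain, which binds C4b, had 16420, 21690 and 20877 in liver, 17160, 22101 and 22410 at 0 h, 19704, 17431 and 20378 at 4 h, 16697, 16983 and 19915 at 24 h and 11920, 8889 and 10399 at 48 h. It was not called at 24 h (-0.13, adjusted p = 0.537), where its samples overlapped those of liver, and was 1.89-fold lower at 48 h (log2 fold change -0.92, SE 0.17, adjusted p = 0.000594). These genes lie 9.51 kb apart on chromosome 13. The log2 fold change of C4bpb at 48 h minus that of C4bpa was -2.52, -2.40 and -2.48 in the 3 rats (unpaired exact permutation p = 0.1, the smallest possible). The pair was chosen after its values were seen. Cfi, the protease that uses C4b-binding protein as its cofactor, was just past the threshold at 48 h (-0.36, adjusted p = 0.0478) and lost its call when any liver or 48 h sample was left out. Under median centring it was at 0.03 and under quantile normalization at 0.04, neither called.

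**Figure D3:**
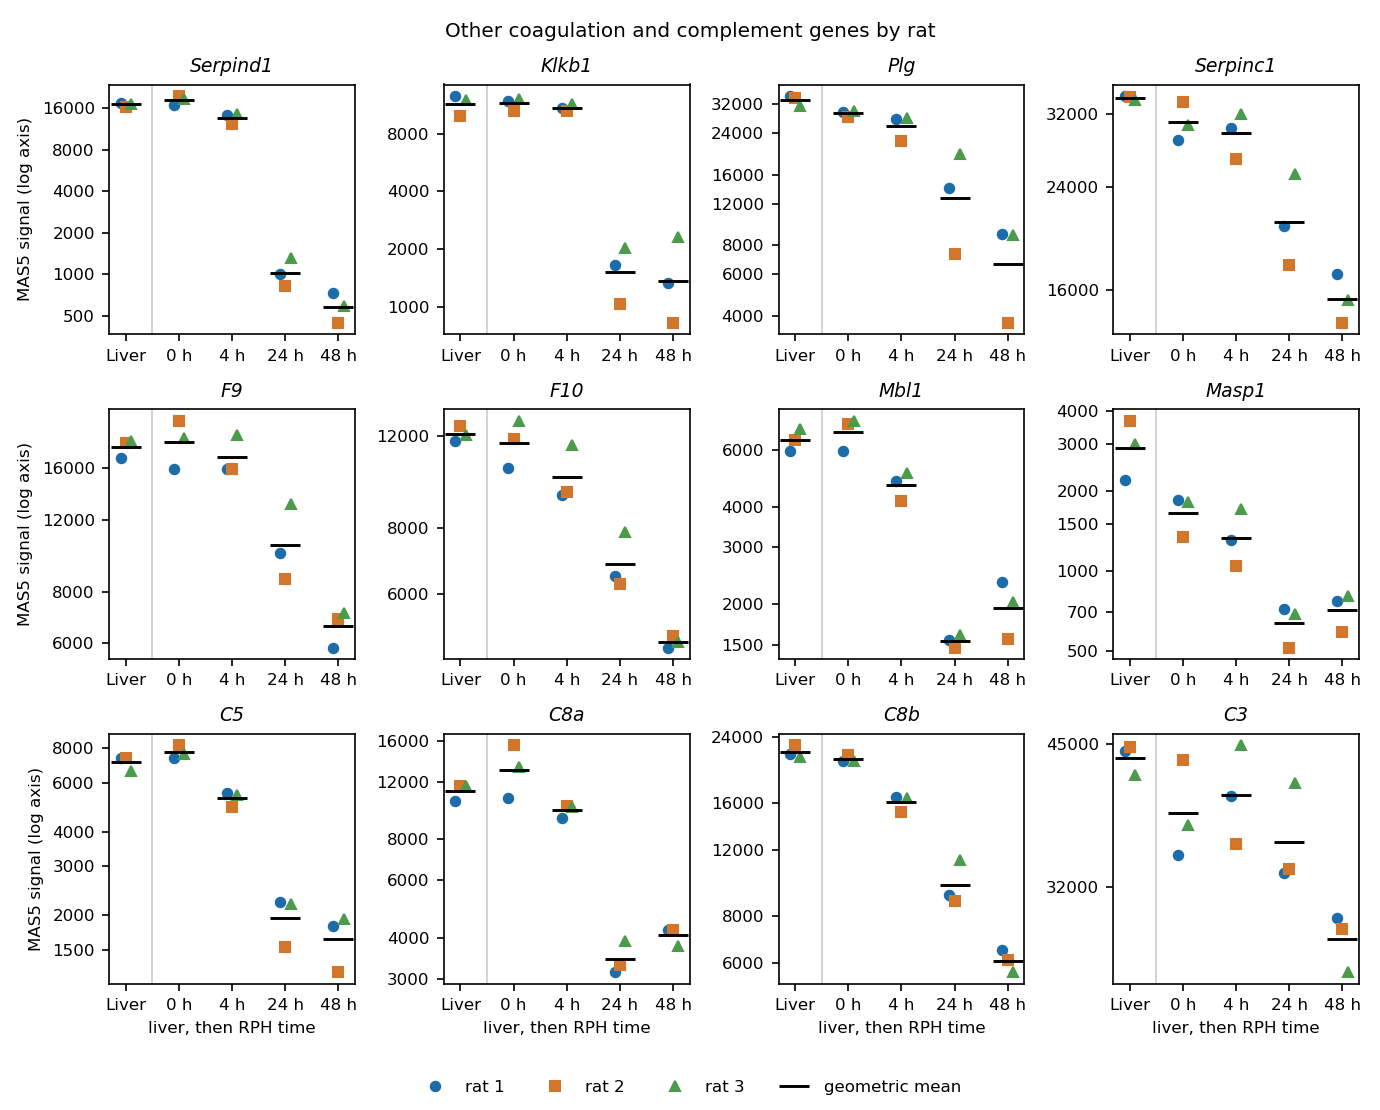
MAS5 signal (log axis) of 12 other members in liver and in RPH at 0, 4, 24 and 48 h, with a point per rat and a bar at the geometric mean. Serpind1 and Klkb1 lie lowest relative to liver at 48 h (29.6- and 8.39-fold lower), and C3 closest to it (1.54-fold lower).

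By the count of members called and by their median (-0.74, then -0.3), the main step was between 4 and 24 h, with a smaller one between 24 and 48 h. At 24 h vs. 4 h, 26 of 34 members were called lower and 0 higher, beside 13.5% of all genes lower (members' median -0.74, all genes 0.14). The 8 members not called in this step were F2, F5, Proc, Pros1, C1r, C3, Cfi and C4bpa, of which F2 and C1r were called with the rat as a block (adjusted p = 0.0449 and 0.0275). At 48 h vs. 24 h, 10 of 34 were lower (29.4%), beside 1.77% of all genes: the 3 fibrinogen chains, F9, Serpind1, C8b, C8g, C9, C4bpa and C4bpb. The largest of these second steps were C4bpb (-1.97, adjusted p = 0.00126), Fgb (-1.39, adjusted p = 0.00123) and Fga (-0.93, adjusted p = 0.00764). Not every gene had its larger change in the first step. By group mean, those with the larger one in the second included C4bpb (-1.26, then -1.97), C9 (-0.63, then -0.86) and all fibrinogen chains. The chains were at -0.72, then -0.93 (Fga), -1.18, then -1.39 (Fgb) and -0.55, then -0.64 (Fgg). In rat 2, however, each chain had its larger change in the first step (Fgb 38646 at 4 h, 14211 at 24 h and 6997 at 48 h). The dimmer probe set of Fga also had its larger change in the first step (-2.42, then -1.12). Klkb1, the genes of the lectin pathway, C5, C8a, Cpb2 and Hrg were called in the first of these steps only, with second steps between -0.26 and 0.34. F10, F12, Kng2l1, Serpinc1, Plg, Serpinf2, C1s and C6 were also called in the first step only. Some of these had steeper second steps, such as Plg (-0.93) and F10 (-0.49). The difference between the steps was not tested for any gene. F10 joined the second step with the rat as a block (-0.49, adjusted p = 0.0287). The second step depended on each animal: with rat 1 left out of every group 0 of 34 were called, with rat 2 left out 2 (C4bpb and Fgb) and with rat 3 left out 1 (Fgb). Single samples lowered it as well, to 6 without the 24 h sample of rat 1 and to 5 without the 24 h sample of rat 3, the 48 h sample of rat 2 or the 48 h sample of rat 3. Leaving out rat 1 also lowered the count of the first step to 17.

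**Figure D4:**
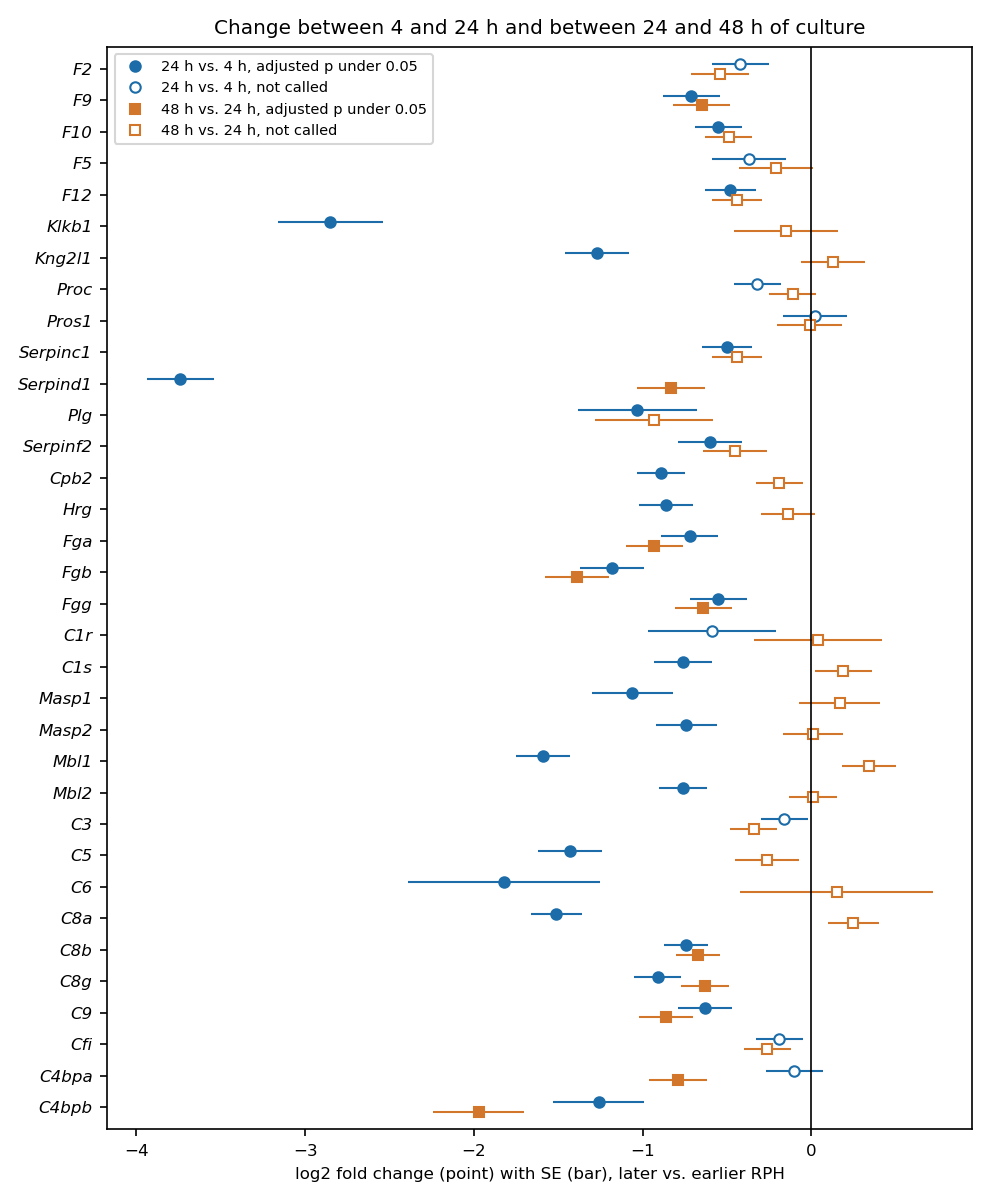
Log2 fold change (x axis, points with SE as bars) of each of the 34 members (rows) at 24 h vs. 4 h (circles) and at 48 h vs. 24 h (squares), filled where called. The circles of Serpind1 and Klkb1 lie farthest left (-3.74 and -2.85), and of the squares those of C4bpb and Fgb (-1.97 and -1.39).

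Of 20 other genes of coagulation tested, mostly made outside hepatocytes or acting at cell surfaces, 5 were higher (25%, against 25.4% of all genes) and 10 lower (50%, against 22.6% of all genes) at 48 h vs. liver (median -0.47). Anxa2 and S100a10, the subunits of a plasminogen receptor, averaged 16448 and 12535 in RPH at 48 h and 694 and 951 in liver (4.57 and 3.72). Tissue factor (F3), which starts clotting, averaged 259 in RPH at 48 h and 57.6 in liver (2.17), and the plasminogen activator Plat averaged 1098 in RPH at 48 h and 248 in liver (2.15). Those that were lowest included Vwf (-4.57, with 48 h signals averaging 7.87, and -2.52 after adding 32 to every signal), an endothelial gene that is also in the endothelial marker list, and Serpine2 (-3.37), an inhibitor of thrombin.

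Of 18 other complement genes, 13 were lower (72.2%) and 3 higher (16.7%) at 48 h vs. liver (median -1.97), against 22.6% and 25.4% of all genes. The lower ones included C1qa (288 in RPH at 48 h, 4474 in liver, -3.96), a C1q chain made by macrophages and part of the Kupffer cell marker list, Fcna (-3.73), a ficolin, and Colec11 (-2.96), a collectin. The higher ones were Cr1l (1.41) and Cd46 (1.32), membrane regulators of the C3 convertases, and Clu (0.57), a soluble inhibitor of the terminal complex. For comparison, 19 of 23 other hepatocyte plasma proteins were lower at 48 h vs. liver (82.6%, beside 88.2% of the members), with a median of -0.67. At 24 h vs. 4 h 9 of the 23 were lower (39.1%, median -0.24), beside 76.5% of the members. At 48 h vs. 24 h 8 of the 23 were lower (34.8%, median -0.31), beside 29.4% of the members (median -0.3).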

How the data were processed

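Liver and RPH RNA of 3 rats was measured on 43 Affymetrix RG230-2 arrays. Per the labels and the study's methods, the authors deposited the intensity of each probe set as MAS5 signal, a linear scale, and every array's trimmed mean was found to be 500 (2% trimmed at each end). The study's methods name Affymetrix's Command Console for these arrays and Bioconductor's affy package for MAS5 values, and which of them made the deposited signal was not settled. Of the probe sets, 57 controls were left out. Probe sets above their array's median on at least 5 arrays (10%) with 1 gene symbol were kept, the brightest for each gene, giving 10649 genes. Log2 signal of the technical arrays of a sample was averaged, which left 15 samples, and limma 3.58.1 (R 4.3.3, lmFit and eBayes) gave 7 comparisons from 1 fit over the 5 groups, with Benjamini-Hochberg adjustment within each. The scripts were tested on simulated data first. The median SD of log2 signal was 0.095 between technical arrays and 0.155 between rats, and the 3 rats per group limit the precision.

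The members and gene lists were chosen with earlier results of these data known. Given by sample are the fibrinogen chains, C3, the called members with the largest change at 48 h vs. liver in each functional group (at most 2) and the largest changes at 48 h vs. 24 h (at most 6). Gene names came from the platform annotation and RefSeq. Samples with the same rat number come from the same animal: their residuals correlated at 0.34 on average over 30 pairs (0.42 over 18 pairs without liver), and those of different rats at -0.18 over 60 pairs, although the lowest same-rat value was -0.15. The livers of rats 1 and 2 correlated no better with their own rat's cultures (0.03 and -0.06) than with each other's (0.19 and 0.08). Alternatives were the rat as a block, quantile normalization, median centring, no filter, a stricter filter, an offset of 32, the mean of all probe sets, the median of technical arrays, the actin ratio as a covariate, the compared groups alone, and leaving out rats or samples.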

Additional observations from a re-analysis of the deposited data

Results flagged for a closer look

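Several members were marked for a closer look because their difference from liver at one time in culture differed from that at the time before it, by the test of the later against the earlier RPH samples (limma, adjusted p under 0.05). Values are log2 fold changes, later vs. earlier, n = 3 rats per time. Groups of 3 were too small for a test of single outlying samples.

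At 4 h vs. 0 h these were the lectins Mbl1 (-0.54) and Mbl2 (-0.72) and the terminal components C5 (-0.55), C8a (-0.40) and C8b (-0.38).

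At 24 h vs. 4 h they were, of the clotting factors, F9 (-0.71), F10 (-0.55), F12 (-0.48), Klkb1 (-2.85), Kng2l1 (-1.27), Fga (-0.72), Fgb (-1.18) and Fgg (-0.55). Of the inhibitors and fibrinolytic proteins they were Serpinc1 (-0.50), Serpind1 (-3.74), Plg (-1.03), Serpinf2 (-0.60), Cpb2 (-0.89) and Hrg (-0.86). Of complement they were C1s (-0.76), Masp1 (-1.06), Masp2 (-0.74), Mbl1 (-1.59), Mbl2 (-0.76), C5 (-1.43), C6 (-1.82), C8a (-1.51), C8b (-0.74), C8g (-0.91), C9 (-0.63) and C4bpb (-1.26).

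At 48 h vs. 24 h they were F9 (-0.65), Serpind1 (-0.83), Fga (-0.93), Fgb (-1.39), Fgg (-0.64), C8b (-0.67), C8g (-0.63), C9 (-0.86), C4bpa (-0.79) and C4bpb (-1.97).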

How the results depend on the processing

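Counts are of 34 members called. At 48 h vs. liver (30 called) every alternative run stayed within 1.5 times, from 25 (median centring) to 32 (replicate block), and at 24 h (27 called) only median centring did not, at 15. At 4 h vs. liver (5 called) median centring gave 3, 2 of them higher, and no filter and the compared groups alone gave 3 each. At 4 h vs. 0 h (5 called) quantile normalization gave 3, median centring 1, no filter 2 and the compared groups alone 2. At 48 h vs. 24 h (10 called) median centring gave 5 and the compared groups alone 3. At 0 h vs. liver every alternative gave 0. With a rat left out of every group the counts were 2 to 3 at 4 h, 22 to 27 at 24 h and 28 to 29 at 48 h vs. liver, 1 to 2 at 4 h vs. 0 h, 17 to 20 at 24 h vs. 4 h and 0 to 2 at 48 h vs. 24 h. With 1 sample left out they were 3 to 5, 26 to 27, 29 to 30, 1 to 4, 21 to 27 and 5 to 11 in the same comparisons. With the replicate block, which pairs samples of a rat, they were 0 at 0 h, 6 at 4 h, 29 at 24 h and 32 at 48 h vs. liver, 7 at 4 h vs. 0 h, 28 at 24 h vs. 4 h and 11 at 48 h vs. 24 h, and no call was lost. Of the fold changes at 48 h vs. liver given by sample, 357 kept direction and call under an alternative and 4 lost the call. These were C3 under quantile normalization, median centring and the actin covariate, and Masp1 under the mean of all probe sets. The causes were not tested.

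Dim probe sets and the brightest ones limit what a fold change shows. The 34 members included 8 of the 100 brightest probe sets in liver, and whether their signal was compressed was not tested.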
